A study of Mus musculus with 6 samples.

Results

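Genes named for the testis were followed in a B cell line treated with siRNA against Spt6, a histone chaperone that moves along genes with RNA polymerase II. Probes were taken whose current gene symbol belongs to 1 of 9 name families (Spata, Tex, Tssk, Catsper, Tekt, Odf, Sycp, Tdrd and Piwil) or is Tbata, Dazl, Ddx4, Mael or Stra8. This gave 101 probes of 100 genes among the 23473 probes and 16390 named genes of the table; only Spata20 had 2 probes. The members were chosen by gene name, but the set was put together from measured siSpt6 against siControl values as well, knowing that Catsperd and Tbata were among the largest rises in these arrays. Every value below from siSpt6 against siControl is therefore a description of the members, and a member said to have risen or fallen is one past the threshold of the fit over all probes.

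RNA came from CH12F3-2A cells, a mouse B cell lymphoma line that switches its antibody class to IgA. All cells were electroporated with siRNA, cultured for 24 h, stimulated with CD40L, IL4 and TGFb (CIT) and cultured for another 24 h. The control siRNA was given to 3 samples (siControl) and the siRNA against Spt6 to 3 samples (siSpt6), and each RNA was read on its own 1-colour array. The line is a single transformed line, and separate cultures within a group are not mentioned in the labels. P-values therefore reflect only how far these samples differ from each other, which may be technical.

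Spermatogenesis runs through meiosis, in which chromosomes pair along the synaptonemal complex, and then through the reshaping of round spermatids into sperm with a flagellum. Small RNAs bound by PIWI proteins, called piRNAs, hold transposons in check in germ cells and are made in granules built by Tudor domain proteins. Many genes used only there are kept silent in other tissues. The names Spata (spermatogenesis associated) and Tex (testis expressed) were given for where a transcript was found, so these families do not share one function, and some of their members act in most cells.

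The siRNA's target Supt6 read 32.1 to 33.1 in siControl and 21.8 to 28.1 in siSpt6, groups that did not overlap, but the difference missed the threshold (log2 -0.38, SE 0.13, limma adjusted p = 0.0973). Array medians were all near 30 intensity units, and the number of arrays limits the precision. The 9 measured B cell markers summed to 34498 to 39374 in siControl and 35812 to 39246 in siSpt6. Cd74 was the largest part of each sum (mean 21108 and 17745), and changes in opposite directions can cancel in it. Of the 9, 1 rose (Cd79b) and 1 fell (Cd22), beside 7.43% and 8.9% of all tested probes. At an unadjusted p under 0.05 in limma, 3 B cell markers were higher and 1 was lower. Of 17 measured markers of T, myeloid, erythroid and testis somatic cells, 0 passed the threshold in limma, beside 16.3% of all tested probes. At an unadjusted p under 0.05, 2 of them passed, both lower (Itgam and Amh).

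Most members were dim. The 91 tested member probes, which needed 2 or more values per group, had a median geometric mean intensity of 9.02, against 31.6 over all 21584 tested probes. When all tested probes were split by brightness into 5 bins of equal size, 58 members (63.7%) fell in the 2 dimmest bins, each of which holds 1 in 5 of all probes, and 47 members lay under an intensity of 10. The lowest 10th of values on an array ended between 2.37 and 2.88, and between 4 and 15 members lay below that point on any array. No detection limit is given for these arrays, so a dim value may be background.

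Blanks, values that the table leaves empty, touched 16 members. Per array, 8, 10 and 11 members were blank in siControl and 9, 11 and 4 in siSpt6, that is 3.96% to 10.9% of members against 4.69% to 8.29% of all probes. The fewest blanks among members, like those of the whole table, were on siSpt6 replicate 3. Sycp1, which builds the central part of the synaptonemal complex, Tex21 and Tex47 had no value on any array. Tex15, Tex43 and Tex45 were blank on all siControl arrays and had 1 value in siSpt6, of 2.98, 1.57 and 1.21 in turn. Spata45 read 1.56 on 1 siControl array and 3.81, 3.37 and 3.84 on the siSpt6 arrays. With Spata19, Sycp3 and Tekt4, these made the 10 members that were not tested.

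Among the 91 tested members, 9 rose and 5 fell in siSpt6 at a limma adjusted p under 0.05, with Benjamini-Hochberg adjustment across the whole array. Over all tested probes 16.3% passed, and among members 15.4% did. Counts given at an unadjusted p under 0.05 stand without that share, which was not counted over all probes and is above 16.3%. Rises made up 9.89% of members beside a background of 7.43%, and falls 5.49% beside 8.9%. Of the 85 members with all 6 values, 17 had groups that did not overlap with siSpt6 higher (20.0%, against 16.9% of all such probes) and 10 with siSpt6 lower (11.8%, against 20.4%). Taken in either direction, the share of members called was thus near that of the whole array. Rises were somewhat more frequent among members and falls somewhat less, a difference that was not tested. The median log2 difference was 0.12 over members and 0.01 over all tested probes.

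**Figure D1:**
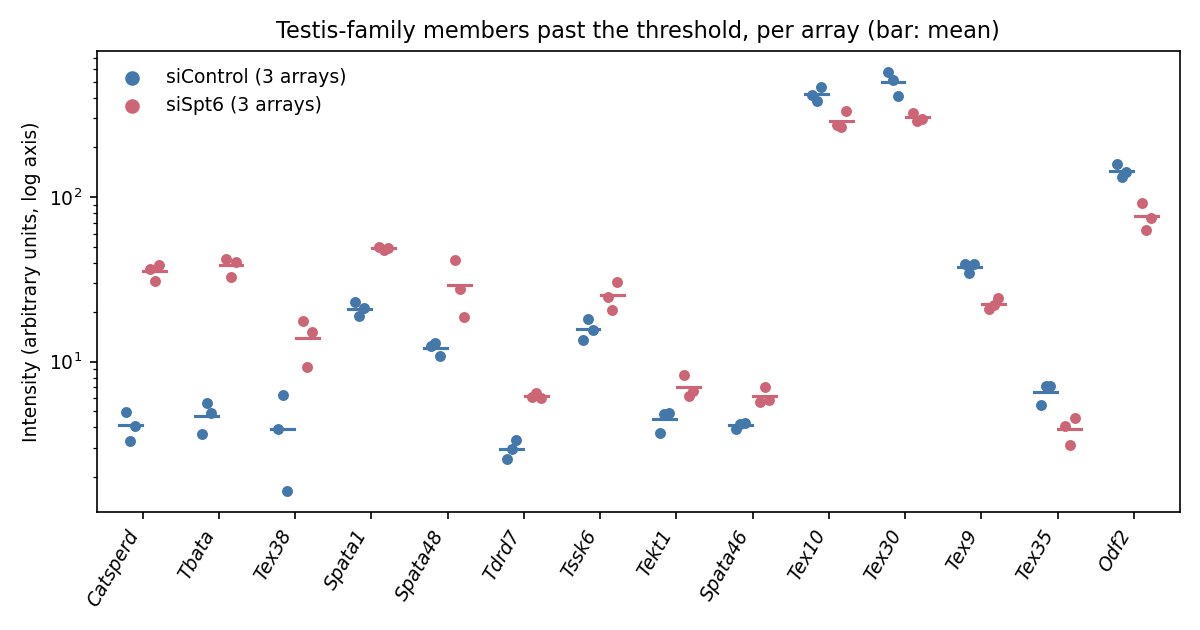
Intensity (arbitrary units, log axis) of the 14 members past the threshold on each of the 3 siControl (blue) and 3 siSpt6 (red) arrays, with the mean of each group as a bar, ordered by log2 difference. Rises start from control means of 2.96 to 20.9, and falls from 6.56 to 498.

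Catsperd stood out among the members. It encodes an accessory subunit of CatSper, the calcium channel of the sperm tail, which is built from 4 pore subunits and several accessory ones. Its probe read 4.92, 3.32 and 4.06 in siControl and 36.5, 31.1 and 38.5 in siSpt6. Every siSpt6 value was several times every control value, and the geometric means differed 8.70-fold (log2 3.12, SE 0.18), rank 10 of the 21584 log2 differences from the top. Its control values lay close to the dim end of the arrays, so the fold depends on the unknown background level; after adding a pseudocount of 2.66 to each value the log2 difference was 2.49.

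None of the other 8 CatSper genes passed the threshold. The pore subunit Catsper1 read 18.4, 17.8 and 14.3 in siControl and 18.3, 14.1 and 18.2 in siSpt6, with a log2 difference of 0.00 (SE 0.16). Catsper2, a second pore subunit, read 10.8 to 11.6 in siControl and 10.6 to 13.9 in siSpt6, and these ranges overlapped. Catsper3 read 1.63 to 3.19 and 3.49 to 4.95; its groups did not overlap, but the difference of 0.74 missed the threshold (limma adjusted p = 0.118) and was 0.39 with the pseudocount. The last pore subunit, Catsper4, overlapped between groups, at 1.31 to 4.03 and 3.37 to 3.73. Among accessory subunits, Catsperb (log2 difference 0.27), Catsperg2 (0.24), Catsperz (0.52) and Catsperg1 (-0.40) did not pass either. All 9 genes lay in the 2 dimmest bins of probes. Catsperg1 and Catsperg2 are closely related copies, and whether their probes tell them apart is not known here.

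**Figure D2:**
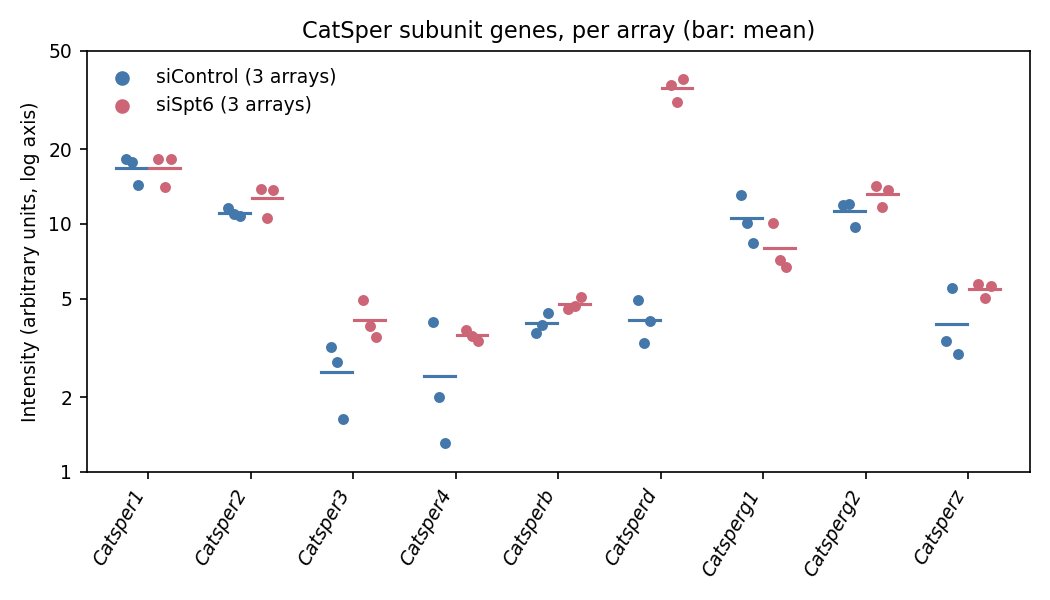
Intensity (arbitrary units, log axis) of the 9 CatSper subunit genes on each siControl (blue) and siSpt6 (red) array, with group means as bars. Catsperd goes from a control mean of 4.10 to 35.4, while the siSpt6 means of the other 8 lie between 3.55 and 16.9.

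Tbata, named for thymus, brain and testis, matched Catsperd in size. It read 3.63, 5.62 and 4.86 in siControl and 42.2, 32.9 and 40.6 in siSpt6. The groups were far apart, with geometric means differing 8.28-fold (log2 3.05, SE 0.19, rank 12 from the top; 2.49 with the pseudocount). In RNA from bulk cells, more expressing cells and more RNA per cell cannot be told apart. On both probes siSpt6 replicate 2 was the lowest of its group. The germ cell genes listed singly beside it did not pass. Mael, of the piRNA pathway, read 2.96 to 4.07 and 4.60 to 6.49, groups that did not overlap (log2 0.59, or 0.36 with the pseudocount; limma adjusted p = 0.0825). Dazl, an RNA-binding protein of germ cells, read 4.55 to 6.75 and 3.59 to 6.18. Stra8, which is needed for entry into meiosis, read 1.67 to 4.66 and 2.63 to 4.04. Both overlapped between groups.

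Promoters of the 2 largest rises, of the next largest, Tex38, and of the largest fall, Odf2, are shown because their base composition differs although the first 2 moved alike. Each line gives the 250 bases before an annotated start (RefSeq, GRCm38.p6), in the direction of transcription, with CpG dinucleotides in capitals.
Catsperd (chr17:56626797-56627046, plus strand): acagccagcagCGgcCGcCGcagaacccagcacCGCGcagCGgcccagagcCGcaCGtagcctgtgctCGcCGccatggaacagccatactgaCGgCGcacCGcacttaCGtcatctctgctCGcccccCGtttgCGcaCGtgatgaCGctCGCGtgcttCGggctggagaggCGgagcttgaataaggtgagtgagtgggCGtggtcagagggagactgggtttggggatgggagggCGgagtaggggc
Tbata (chr10:61171714-61171963, plus strand): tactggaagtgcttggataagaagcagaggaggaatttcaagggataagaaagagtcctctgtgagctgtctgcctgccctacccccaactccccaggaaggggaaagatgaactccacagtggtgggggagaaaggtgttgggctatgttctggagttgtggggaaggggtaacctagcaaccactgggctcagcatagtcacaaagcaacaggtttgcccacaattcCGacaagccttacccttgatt
Tex38 (chr4:115781035-115781284, minus strand): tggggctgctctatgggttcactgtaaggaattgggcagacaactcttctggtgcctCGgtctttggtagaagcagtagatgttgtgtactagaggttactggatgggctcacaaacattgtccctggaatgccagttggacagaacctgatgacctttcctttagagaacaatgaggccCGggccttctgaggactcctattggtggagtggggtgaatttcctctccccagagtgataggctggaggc
Odf2 (chr2:29889470-29889719, plus strand): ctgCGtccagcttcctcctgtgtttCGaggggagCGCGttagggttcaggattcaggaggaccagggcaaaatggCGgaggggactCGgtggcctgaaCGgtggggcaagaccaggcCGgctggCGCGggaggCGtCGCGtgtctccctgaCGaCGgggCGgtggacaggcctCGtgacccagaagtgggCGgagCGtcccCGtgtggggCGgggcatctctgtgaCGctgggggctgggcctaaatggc
The Catsperd stretch held 25 CpG and the Odf2 stretch 22, whereas the Tbata and Tex38 stretches held 1 and 2. Catsperd has 2 annotated starts and Odf2 has 4, of which the first in the table is shown.

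Promoter windows of 300 bases (250 before and 50 after the start) were found for 86 of the 100 genes, and where a gene had several windows the highest CpG count was taken. The median was 10.5 CpG over members and 8 over all 27025 genes with a window. Members with a geometric mean of at least 60 had a median of 28 CpG (15 genes), and those under 10 or untested had a median of 5 (49 genes). Across 78 tested member genes the CpG count and the mean log2 level had a Spearman rho of 0.38, and across 12702 named genes of the table it was 0.37; intensities of different probes are not comparable as transcript levels, and genes are not independent replicates. The 9 risen members had a median of 14 CpG and the 5 fallen members 21.

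Motifs known from germ cell genes were searched in the same windows. The letters TCCCGC on either strand, a core that E2F6 binds, were in 26 of 86 members (30.2%) and in 5959 of all 27025 genes. The E-box CACGTG was in 11 members (12.8%, against 8.09% of all genes), Catsperd among them. The full cyclic AMP response element TGACGTCA, on either strand, was in 1 member, Spata7 (1.16%, against 2.03%). The TATA box TATAAA, on the coding strand, was in 2 members, Catsperg1 and Tdrd7 (2.33%, against 9.77%). A match is a run of letters and not a bound site. Of the 9 risen members 2 held TCCCGC, Spata1 and Tekt1, as did 3 of the 5 fallen ones, Odf2, Tex9 and Tex30.

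Of the other rises, Spata1 was the most even. It read 22.9, 18.8 and 21.0 in siControl and 49.5, 47.5 and 49.2 in siSpt6. The groups were well separated, and the rise was 2.33-fold (log2 1.22, SE 0.12, limma adjusted p = 0.00181). Spata48 read 12.5, 13.0 and 10.8 in siControl and 41.6, 27.7 and 18.8 in siSpt6, so the siSpt6 arrays differed from each other by more than a factor of 2. Its rise was 2.31-fold (limma adjusted p = 0.0298), a call lost without any 1 of 4 arrays (siControl replicates 1, 2 and 3 and siSpt6 replicate 2, adjusted p up to 0.0847). Spata46, a sperm head protein, rose from 4.13 ± 0.180 to 6.22 ± 0.724 (intensity ± SD, n = 3 each), but kept its call only without siSpt6 replicate 1 (limma adjusted p up to 0.0873 without any other array). Its call was also lost after cyclic loess normalization (0.0746) and with the eBayes trend and robust options (0.0958), and with the pseudocount its log2 difference was 0.38, against 0.58. Of the 22 tested Spata probes 3 rose and 0 fell in limma, beside 7.43% and 8.9% of all probes. At an unadjusted p under 0.05, 4 were higher and 1, Spata5, was lower.

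Spata5, an AAA-type ATPase that acts in ribosome assembly in most cells, read 157, 154 and 173 in siControl and 123, 119 and 123 in siSpt6. These groups did not overlap, and the difference narrowly missed the threshold (log2 -0.40, limma adjusted p = 0.0512). The 2 probes of Spata20 had log2 differences of 0.01 and 0.12.

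Tex members moved both ways, with 1 rise and 4 falls among 28 tested, beside 7.43% and 8.9% of all probes. Tex38, a membrane protein of spermatids, read 3.88, 6.25 and 1.64 in siControl and 17.6, 9.24 and 15.2 in siSpt6. The control values spread more than 3-fold, and the 3.96-fold rise (log2 1.99, SE 0.49) was called with a limma adjusted p of 0.0371, lost without siControl replicate 1 or any 1 siSpt6 array (adjusted p up to 0.109); with the pseudocount the log2 difference was 1.37. Tex9 read 39.1, 34.7 and 39.4 in siControl and 21.0, 22.1 and 24.5 in siSpt6. This 1.68-fold fall was even on both sides (limma adjusted p = 0.00900). Tex35, a dim probe, fell 1.68-fold from 6.56 ± 0.981 to 3.91 ± 0.716, a call lost without siControl replicate 2 or 3 or siSpt6 replicate 1 or 2 (limma adjusted p up to 0.113), after quantile normalization (0.0546) and with the eBayes options (0.0555); with the pseudocount its log2 difference was -0.49, against -0.75.

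The brighter Tex falls were Tex30 and Tex10. Tex30 read 576, 510 and 409 in siControl and 324, 291 and 299 in siSpt6, a 1.62-fold fall (limma adjusted p = 0.0258). Tex10, part of a complex that works on ribosomal RNA precursors in most cells, read 417, 384 and 468 and then 275, 265 and 334, a 1.46-fold fall (limma adjusted p = 0.0460). For both, the siControl values lay above all siSpt6 values. Both calls were lost after quantile normalization (adjusted p = 0.0628 for Tex30 and 0.0886 for Tex10), and that of Tex10 also after cyclic loess (0.0783) and without the filter on blanks (0.0506). Each was also lost without any 1 of 5 arrays, kept for Tex30 only without siControl replicate 3 and for Tex10 only without siSpt6 replicate 3 (adjusted p up to 0.0832 and 0.130). Tex13b, whose probe is listed as Tex13, read 427 to 554 and 312 to 376 and just missed the threshold (limma adjusted p = 0.0566). Tex261, the brightest member, overlapped between groups at 1104 to 1289 and 992 to 1132.

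The tektins, the Tssk kinases of spermatids and the sperm tail genes Odf1, Odf3 and Odf4 together held 2 rises and 0 falls among 12 tested, beside 7.43% and 8.9% of all probes (limma; 3 higher and 0 lower at an unadjusted p under 0.05). This tally holds neither Catsperd nor Odf2. Tekt1, a tektin of the microtubules in flagella and cilia, read 3.71, 4.78 and 4.89 in siControl and 8.32, 6.21 and 6.66 in siSpt6. It rose 1.58-fold (limma adjusted p = 0.0426), a call lost when any 1 of the 6 arrays was left out (adjusted p up to 0.117), after either other normalization and with the eBayes options (up to 0.0791). Tekt2, a related tektin, read 2.12, 1.74 and 3.73 and then 4.47, 4.63 and 6.52, and its 2.14-fold difference stopped just short of the threshold (limma adjusted p = 0.0510). With the pseudocount its log2 difference was 0.61, against 1.10, and passed (adjusted p = 0.0359), as it did among complete probes only (0.0440) and with the eBayes options (0.0373). It did not pass after quantile (0.0968) or cyclic loess normalization (0.103) or without the filter on blanks (0.0561). Nor did it in 5 of the 6 fits without 1 array (up to 0.138). Tekt3 was not higher, at 2.34 to 4.16 and 2.85 to 3.13. Tssk6, a kinase needed for the packing of sperm DNA, read 13.6, 18.1 and 15.6 and then 24.7, 20.7 and 30.5. It rose 1.60-fold (limma adjusted p = 0.0495) and kept its call only without siSpt6 replicate 2 (adjusted p up to 0.142 without another array). It was also lost after either other normalization and without the filter on blanks (up to 0.0629). The other 5 Tssk genes had log2 differences of -0.06 (Tssk3) to 0.36 and did not pass.

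Odf2 had the largest fall of all members. It is best known for the outer dense fibres of the sperm tail, but it also builds the appendages of centrioles in dividing cells. Its probe read 159, 131 and 142 in siControl and 91.8, 63.1 and 75.0 in siSpt6. The groups did not overlap, and the fall was 1.90-fold (log2 -0.92, SE 0.17, limma adjusted p = 0.0129; 0.0504 without siControl replicate 1). Odf2l, a relative, went the other way at 144, 186 and 133 against 204, 256 and 240, just short of the threshold (log2 0.61, limma adjusted p = 0.0538). It passed in 7 of 8 other settings (adjusted p 0.0127 to 0.0590), but in only 1 of the 6 fits without 1 array (up to 0.147). Odf1, Odf3 and Odf4, dimmer probes for sperm tail proteins, overlapped between groups.

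Genes of the piRNA pathway and its granules held 1 rise and 0 falls among 11 tested members, near the 7.43% of all probes that rose (limma; 2 higher and 1 lower at an unadjusted p under 0.05). Tdrd7, a Tudor protein of germ granules that is also needed in the lens, read 2.56, 2.96 and 3.36 in siControl and 6.15, 6.47 and 6.01 in siSpt6. Its groups were narrow and apart, with a rise of 2.11-fold (limma adjusted p = 0.00387), although all 6 values were dim; with the pseudocount the log2 difference was 0.66. Among the PIWI proteins, which carry the piRNAs, Piwil1 (14.9 to 20.4 over all arrays) and Piwil4 (72.6 to 95.7) overlapped between groups. Piwil2 read 27.9 to 35.0 in siControl and 24.4 to 26.7 in siSpt6, which did not pass (log2 -0.33, limma adjusted p = 0.150). Ddx4, a germ cell RNA helicase, was bright for a gene of this kind, at 268 to 295 and 229 to 276. Its groups overlapped, and whether its probe reports this transcript alone is not known here. Tdrd3, a Tudor protein that acts in most cells, read 111 to 113 and 82.4 to 95.7 (limma adjusted p = 0.104).

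Of the meiosis members, 0 of 6 tested passed in limma, beside 16.3% of all probes, and 0 had an unadjusted p under 0.05. So few genes can hold 0 calls at a share of 16.3%. Besides Sycp1, the genes named Sycp were at the floor of the arrays: Sycp2 had 5 values between 1.62 and 2.01, and Sycp3 had 3 values between 1.21 and 1.94. Tex12, also a meiosis member, was not, at 52.2 to 62.2 over all arrays.

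**Figure D3:**
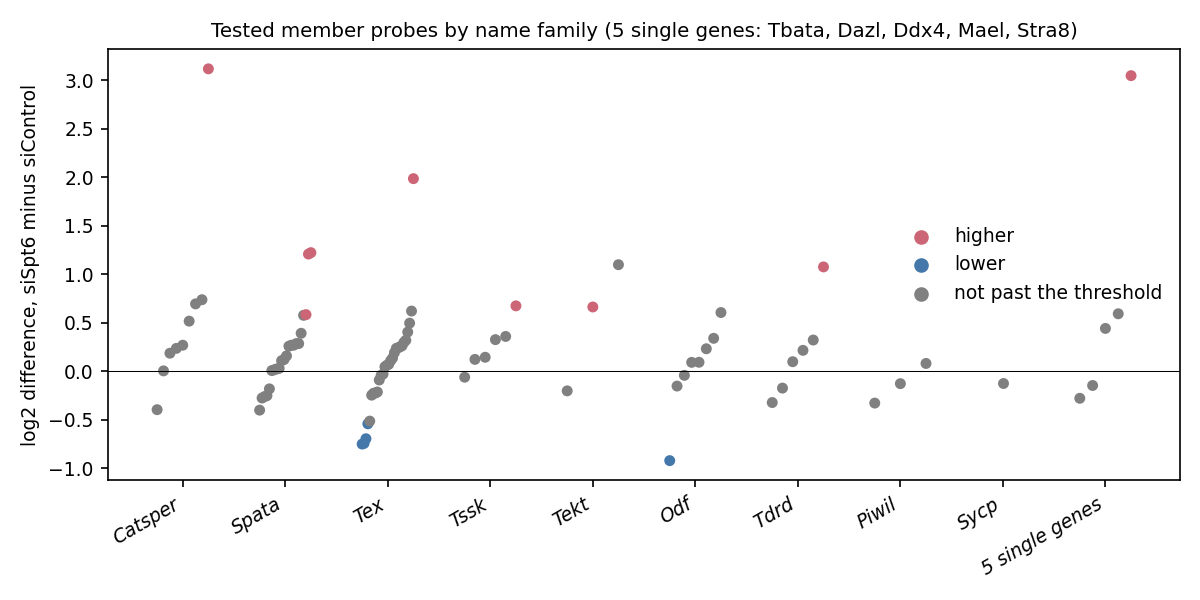
Log2 difference, siSpt6 minus siControl, of the 91 tested member probes by name family; each point is a probe, red for rises, blue for falls and grey for those not past the threshold. The 9 rises are spread over 6 families and the single genes, and 4 of the 5 falls are Tex genes.

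Brightness moved with these differences. Over all probes the median log2 difference went from 0.08 in the dimmest bin to -0.18 in the brightest, rises from 3.96% to 6.58% and falls from 1.76% to 22.2%. In the dimmest bin 2 of 36 members rose and 1 fell, and the members' median was 0.23. In the second bin 7.6% of all probes rose and 2.52% fell. There 4 of 22 members rose (Catsperd, Tbata, Tex38 and Tekt1) and 0 fell, with a median of 0.28. Brightness includes the siSpt6 values, so a large rise can lift a probe into a brighter bin. The control means of these 4 (4.10, 4.70, 3.92 and 4.46) lay below this bin's lower end of 5.39. In the third bin 3 of 17 rose and 1 fell, with a median of 0.10, against 9.45% and 6.46% of all probes. Of these rises, Spata48 and Tssk6 had control means of 12.1 and 15.8, below this bin's lower end of 17.2. The 2 brightest bins held 16 members, with 3 falls and 0 rises. In the fourth bin 9.54% of all probes rose and 11.5% fell, and 0 and 1 of 10 members did (median 0.05, against -0.03 of all probes). In the brightest bin 2 of 6 members fell, their median was -0.37 against -0.18 of all probes, and 2 of the 6 lay above the bin's median. Each member's difference was also set against the median of its own bin: 57 of 91 lay above it, and the median distance was 0.11. Catsperd lay 3.03 above the median of its bin, in which the SD over all probes was 0.49. Its own siSpt6 values helped to place it in that bin. How far brightness contributes to the members' differences was not tested.

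**Figure D4:**
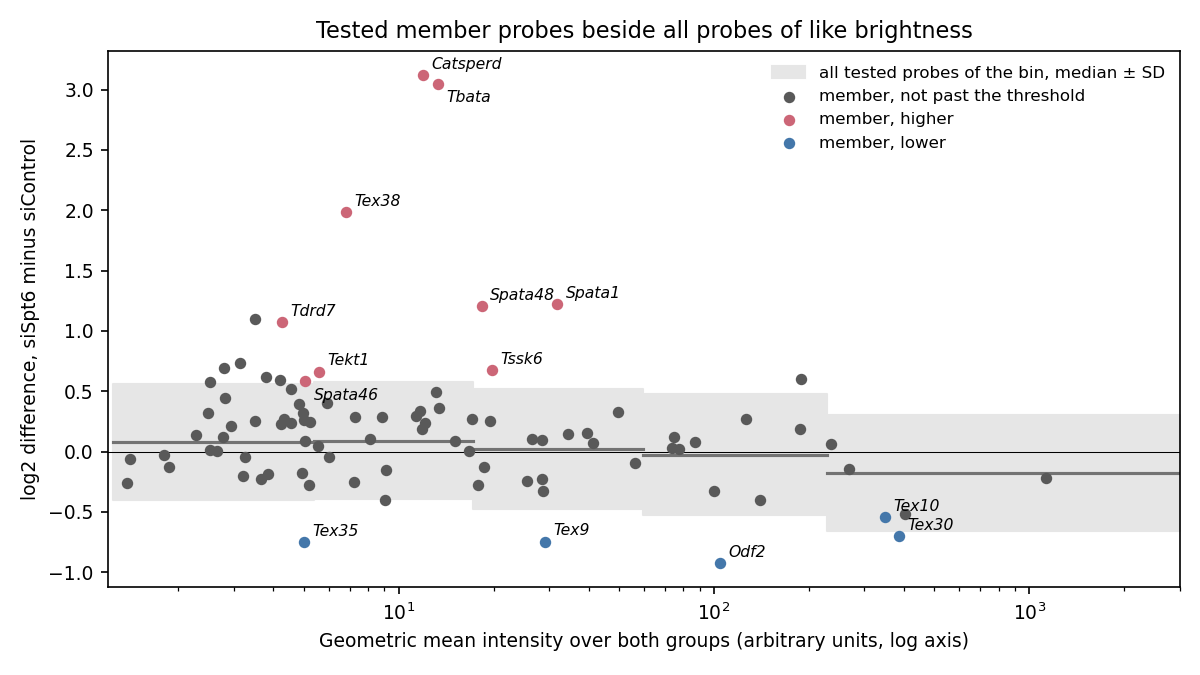
Log2 difference, siSpt6 minus siControl, of each tested member probe against its geometric mean intensity over both groups (log axis). Grey lines and bands are the median ± SD of all tested probes in 5 brightness bins (from 0.08 in the dimmest to -0.18 in the brightest); Catsperd, Tbata and Tex38 lie far above the bands.

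Germ cell genes outside the name rule were read from 2 lists set down for this comparison, again with the rises of Catsperd and Tbata known. Of 19 tested spermatid genes 6 rose and 0 fell in limma, beside 7.43% and 8.9% of all probes. Their median log2 difference was 0.28. At an unadjusted p under 0.05, 7 were higher and 0 lower, a cut at which the share of all probes was not counted. Prm1, a protamine that packs sperm DNA, read 1.53 and 2.16 on 2 siControl arrays, was blank on the third, and read 33.8, 23.2 and 36.1 in siSpt6. This was 16.8-fold on the fitted scale (limma adjusted p = 0.000817), rank 3 of all tested probes, from control values at the floor of the arrays; with the pseudocount the log2 difference was 2.89, against 4.07 without it. Prm2, its partner, overlapped between groups and had a log2 difference of -0.13.

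Zpbp2, a protein of the sperm acrosome, was the brightest of these rises. It read 33.3, 34.6 and 32.9 in siControl and 150, 165 and 150 in siSpt6, a 4.60-fold rise (limma adjusted p = 0.000339). The related Zpbp rose 1.61-fold, the transition protein gene Tnp2 1.70-fold, Meig1 1.79-fold and the sperm glycolysis gene Gapdhs 2.12-fold, the last from 1.67 ± 0.375 to 3.50 ± 0.539. The control values of Gapdhs lay below the lowest 10th of every array, and with the pseudocount its log2 difference was 0.51, against 1.08. Without siSpt6 replicate 1 the count of rises was 3, since Tnp2, Meig1 and Gapdhs missed the threshold (limma adjusted p = 0.0513 for Gapdhs and 0.0507 for Meig1). Tnp2 also missed it without siControl replicate 1 or siSpt6 replicate 2 (adjusted p up to 0.0717 without 1 array). After cyclic loess normalization its call was lost too (0.0525). Summed over the list, intensities were 212 to 247 in siControl and 410 to 430 in siSpt6. Without Zpbp2 and Prm1, left out after their values were seen, the sums were 179 to 212 and 223 to 247, so most of the gain lay on these 2 probes. The spermatid genes Tnp1, Pgk2, Spaca1, Crisp2 and Rsph1 had too many blanks to be tested.

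The list of meiosis and germline genes gave 0 rises and 0 falls among 24 tested in limma, beside 7.43% and 8.9% of all probes. Of the 24, 16 lay in the 2 dimmest bins. The list had 3 higher and 0 lower at an unadjusted p under 0.05, and a median log2 difference of 0.01. In other settings up to 2 of its genes rose. Whether the spermatid list differs from the meiosis list was not tested.

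**Figure D5:**
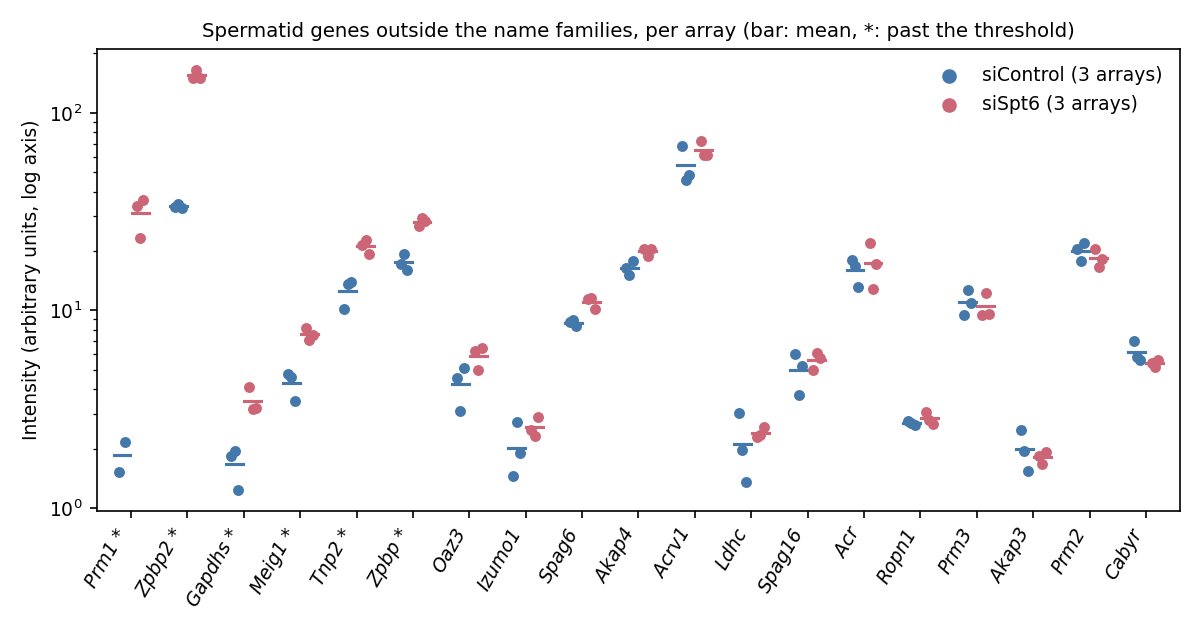
Intensity (arbitrary units, log axis) of the 19 tested spermatid genes outside the name families on each siControl (blue) and siSpt6 (red) array, with group means as bars and an asterisk at the 6 past the threshold. Zpbp2 goes from a mean of 33.6 to 155, and Prm1 from 1.85 (2 values) to 31.0.

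The 6 members that rose at least 2-fold were set beside their nearest protein-coding genes with a tested probe, by RefSeq gene order. They make up 6.59% of tested members, and 2.75% of all tested probes rose that far. No member fell at least 2-fold (0 of 91), which 1.75% of all probes did. Of 12 neighbours 1 passed the threshold, near a background of 16.3%: Zpbp, which overlaps Spata48 on the opposite strand and went from 17.5 ± 1.56 to 28.1 ± 1.29 (intensity ± SD, n = 3 each; limma adjusted p = 0.0114). Signal of the Spata48 and Zpbp probes cannot be assigned to a strand with what is known of the probes here. The same limit holds for Spata1, which overlaps Ctbs on the opposite strand. Ctbs went from 199 ± 5.86 to 216 ± 19.5 and did not pass (log2 0.11). Both neighbours of Catsperd, Lonp1 and Ranbp3, were lower by log2 differences of -0.38 and -0.42 that did not pass. Those of Tbata, Sgpl1 and Adamts14, had differences of 0.68 and -0.18 and did not pass either.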

How the data were processed

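Per the labels' protocols, total RNA was amplified into amino allyl RNA, coupled to Cy5 and read on 1-colour arrays by the TORAY protocol. The authors deposited linear intensity values, 1 column per array; no background correction or normalization is described there. Array medians lay between 29.97 and 30.00, as after scaling to a common median, so values were used as deposited and log2-transformed. Whether they had been scaled before deposit is not stated. Blanks were taken as missing. Probes were named from the platform's table, and older symbols were updated through RefSeq (GRCm38.p6): 63 member probes carried a current symbol and 38 an older symbol of 1 gene. Positions of probes on transcripts were not used here.

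Limma 3.58.1 (R 4.3.3; lmFit and eBayes, group as the only term, two-sided) was fitted to all 21584 probes with at least 2 values in each group, with Benjamini-Hochberg adjustment over all of them and a threshold of 0.05. Folds compare geometric means. The fit was tested on simulated data. Brightness is the mean of both groups' mean log2 values. The members and lists were chosen with earlier results of these data known. Named were members past the threshold or at least 2-fold apart without overlap, the 5 brightest, the Catsper, Piwil, Sycp and single genes, the extremes of each other family, members blank on all arrays of a group, and list genes past the threshold; others were named after their values were seen. Alternatives were 2 normalizations, filters, an added pseudocount (2.66, the lowest 10th's upper end), eBayes with trend and robust options, blocking on the replicate number, and leaving out single arrays.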

Additional observations from a re-analysis of the deposited data

How the results depend on the processing

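The 14 calls among members varied with the setting, but no called member changed direction. Catsperd, Tbata, Spata1, Tdrd7 and Tex9 passed in every setting in which they were tested, with each array left out included. Over the fits without 1 array, 5 to 8 members rose and 2 to 4 fell, of 972 to 1090 rises and 986 to 1342 falls over all probes. After quantile normalization 2 members fell, and over all probes 1853 rose and 1379 fell, against 1603 and 1922 as deposited. Among bright probes only, where few members are left, 2 members rose and 6 fell. The cut there was a geometric mean of 31.6 over both groups. Spata1, with a control mean of 20.9 and a geometric mean of 31.9, met it only through its siSpt6 values. Over all probes of that setting 1459 rose and 2515 fell, so falls outnumbered rises in both. The shares that these counts make up were not computed, so nothing about the members is read from them. Of the spermatid genes 1 rose there, and the count of rises in that list was 3 to 6 without 1 array. The list of meiosis and germline genes had 1 rise among complete probes only, among bright probes only, with the pseudocount and with the replicate block, 2 with the eBayes options, and 0 or 1 without 1 array; settings for both lists were added after seeing the data. The cause of these changes was not tested, except that fewer probes or arrays enter some fits. The members' median log2 difference stayed between 0.04 and 0.18, and their median distance from probes of like brightness between 0.09 and 0.11. With the replicate number as a block, 9 members rose and 5 fell, the counts without it, with 1630 rises and 1964 falls over all probes; the calls of Tex38, Tekt1, Tssk6 and Tex35 were lost there, and Catsper3 (adjusted p = 0.0479), Odf2l, Tekt2 and Tex13b passed. The numbers do not pair the arrays by the labels: deviations from the group mean correlated at 0.35, 0.08 and 0.26 for equal numbers, each array best with its own number, which is a hint from the data. The floor of these arrays limits what can be said of dim members.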
